A study of Mus musculus with 32 samples.

Results

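The cytosolic ribosomal protein genes were followed in mouse embryonic stem cells as they left the pluripotent state held by inhibitors. Members were the genes whose symbols follow the scheme for proteins of the large (Rpl) and small (Rps) subunit, with the stalk genes Rplp0, Rplp1 and Rplp2 and with Rpsa, at a mean of at least 5 CPM (counts per 1000000 counts) over 31 libraries, pseudogenes left out. This gave 81 genes of 31053 in the files, 49 of the large and 32 of the small subunit. Of 83 matching symbols, Rpl3l at 0.549 CPM and Rpl29 at 1.48 CPM fell below the level, while Rpl15, the nearest member above it, had 19.5 CPM. All 81 passed the filter on low counts used for the tests. The rule did not use any change between conditions.

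All groups were E14 cells, a line derived from mouse blastocysts and grown without feeder cells on gelatin in N2B27, a defined medium. Cells of the 2i groups had 3 uM CHIR99021, which inhibits the kinase GSK3, and 1 uM PD0325901, which inhibits the kinase MEK. Cells of the 2iL groups had the cytokine LIF in addition. The cells were plated sparsely, and a day later the inhibitors, with LIF where present, were withdrawn by changing to plain N2B27. Sampling after withdrawal from 2i was at 0, 12, 24, 36, 48, 60, 72 and 84 h. After withdrawal from 2iL it was at 0, 24, 36, 48, 60, 72, 84 and 96 h, with 2 libraries per time and 32 in all. These are called the 2i and the 2iL course. Polyadenylated RNA was counted from the 3' ends of transcripts. No group at a later time was kept in its inhibitors, so time in culture goes with withdrawal. Nothing in the labels tells whether replicates are separate cultures, and the spread behind each p-value is that between libraries, which may be technical.

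Each cytosolic ribosome carries ribosomal proteins on a scaffold of ribosomal RNA, and making these parts is among the largest investments of a growing cell. Transcripts of ribosomal protein genes begin with a C followed by a run of pyrimidines, the terminal oligopyrimidine (TOP) motif, through which the kinase mTORC1 and the protein LARP1 control their translation and stability. Factors that assemble the ribosome and the machinery of RNA polymerase I, which makes most ribosomal RNA, are encoded by separate genes, many of them targets of Myc. A few members have paralogs that replace them in certain tissues. Rpl10l and Rpl39l are autosomal counterparts of the X-linked genes Rpl10 and Rpl39 and are best known from the male germ line, where the X chromosome is silenced during meiosis.

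Of the 32 libraries, 31 held 1122648 to 3438514 counts in genes (median 1980949), and 3 counts, the floor used here for a count of 0, are 0.872 to 2.67 CPM in them. The remaining library, 2iL 36 h replicate 2, held 7298 counts. It stayed in the fit, but its values are not printed. In 4 libraries the ribosomal protein genes stood apart from the other library of the same group. In the 2i course this was replicate 2 of 12 h. In the 2iL course these were replicate 1 of 48 h, replicate 2 of 84 h and replicate 1 of 96 h. The differences between the libraries of a pair over 79 members (without Rpl39l and Rpl10l) had an SD of 0.401 to 0.815 on the log2 scale in these 4 pairs, against 0.159 to 0.293 in the other 11 pairs. These pairs also differed most over the whole transcriptome. Over all genes with at least 20 counts in a pair, the chi-square statistic per degree of freedom was 7.27 to 18.1 in the 4 pairs, against 2.08 to 6.63 in the other 11. Between 3 and 23 members lay more than 1 log2 unit apart in the 4 pairs, and 0 did in the others. Neither this count nor the next is given over all genes, so they are not read as particular to the members. Of the 79 members, 43 were lower in all 4 libraries than in the partner, led by Rpl22l1, Rps18 and Rpl11, and 8 were higher in all 4, among them Rpl41, Rps20 and Rpl14. Counts of lower members are therefore given with all libraries and without these 4, called "without the 4 libraries". That fit had 28 libraries, left 4 groups with a single library that is assumed to vary like the others, and had a common dispersion of 0.00828, against 0.0215 with all libraries. Leaving libraries out because they differ from their partners itself lowers the spread that remains. Adjusted p-values of that fit may thus be too small and its counts too high, so they are not independent support. Why the 4 libraries differ was not tested.

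**Figure D1:**
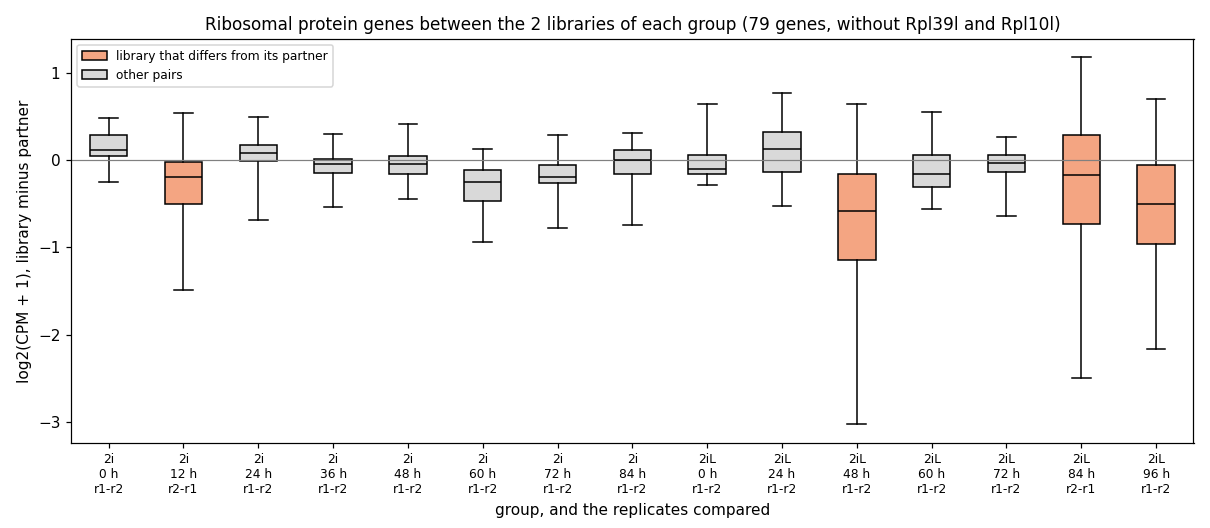
Difference in log2(CPM + 1) of 79 ribosomal protein genes between the 2 libraries of each group, with boxes for the quartiles and whiskers for the whole range. The 4 orange boxes, at 2i 12 h and at 2iL 48, 84 and 96 h, span several log2 units and lie mostly below 0, while the grey boxes of the other 11 pairs stay within 1 unit of 0.

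The members lie on 19 chromosomes, 4 of them on the X chromosome. The mouse annotation lists 289 pseudogenes named for ribosomal proteins, of which 3 are in the count table, and the files hold uniquely aligned reads alone, with 1.09 to 1.5 alignments that were not unique for each unique one. Reads that a member shares with its processed copies are therefore missing from the levels, by a share that differs between genes. Levels of different members are not compared with each other. Another gene overlaps 22 members, 11 of them with a gene at 5 CPM or more, such as Snhg9 beside Rps2, and values of Rps2 may hold reads of that neighbour. The strand setting of the counting is not given in the sources used here. The summed level of 7 pluripotency genes (Pou5f1, Sox2, Nanog, Zfp42, Sall4, Lin28a, Utf1) lay between 789 and 1606 CPM in the 31 libraries. Marker genes of other cell types summed to 0.699 to 12.8 CPM for 6 primitive endoderm genes, 5.85 to 85.4 CPM for 6 trophectoderm genes and 1.53 to 29.5 CPM for 6 fibroblast genes, with each of these genes counted in some library. In such bulk samples, fewer cells of a type and less RNA per cell cannot be told apart.

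Promoters from RefSeq (build GRCm38.p6, 250 bases before to 50 after the annotated start) matched 62 of the 81 members. A run of at least 8 pyrimidines that begins with C, on the sense strand and touching the 25 bases on either side of the start, was present in a promoter of 36 of them (58.1%), against 22.2% of all 17492 protein-coding genes with a promoter in the table. CCGGAAG, the core of sites for ETS factors, was found on either strand in 41.9% of the matched members, against 12.9% of these genes. The same search found TGACGTCA, a cyclic AMP response element, in 8.06% against 2.54%, AAGATGGC, a YY1 motif, in 9.68% against 3.57%, CACGTG, an E-box bound by Myc, in 9.68% against 8.91%, and TATAAA in 11.3% against 14.8%. These motifs were searched as exact letters with no overlap removed, and a match is a description of the sequence. The stretches below run from 75 bases before to 25 bases after the annotated start and belong to the genes on which the results turn, the paralog pairs first. Capitals mark the pyrimidine run, and Rpl10l and Rpl10 have none in this window. Rpl39l is at chr16:10170153-10170252 on the plus strand and Rpl39 at chrX:37085198-37085297 on the minus strand. Rpl10l is at chr12:66284377-66284476 on the minus strand and Rpl10 at chrX:74270741-74270840 on the plus strand. Rps12 is at chr10:23787185-23787284 on the minus strand, Rplp2 at chr7:141447576-141447675 on the plus strand and Rpl28 at chr7:4792890-4792989 on the plus strand.
Rpl39l: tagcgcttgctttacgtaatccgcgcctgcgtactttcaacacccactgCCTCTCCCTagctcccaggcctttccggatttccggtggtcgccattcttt
Rpl39: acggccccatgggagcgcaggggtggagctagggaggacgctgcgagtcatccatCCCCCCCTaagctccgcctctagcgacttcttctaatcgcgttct
Rpl10l: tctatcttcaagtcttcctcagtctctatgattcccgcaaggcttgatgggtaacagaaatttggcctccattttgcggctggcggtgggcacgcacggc
Rpl10: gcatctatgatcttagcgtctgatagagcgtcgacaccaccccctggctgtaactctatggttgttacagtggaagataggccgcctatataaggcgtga
Rps12: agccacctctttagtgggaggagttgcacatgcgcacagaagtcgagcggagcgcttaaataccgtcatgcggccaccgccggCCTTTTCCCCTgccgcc
Rplp2: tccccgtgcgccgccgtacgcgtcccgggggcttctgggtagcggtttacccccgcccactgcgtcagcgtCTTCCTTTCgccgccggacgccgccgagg
Rpl28: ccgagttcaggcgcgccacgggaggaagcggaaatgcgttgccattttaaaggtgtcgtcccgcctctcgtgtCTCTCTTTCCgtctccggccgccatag

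Counts in the 81 genes made up 5.58% to 11.4% of all counts in genes (median 8.59%). This share of all counts was on average highest before withdrawal and lowest at the first time after it. It was 6.21% ± 0.882 at 12 h of the 2i course, against 10.5% ± 0.214 at 0 h, and 6.89% ± 0.651 at 24 h of the 2iL course, against 11.2% ± 0.230 at 0 h (SD, n = 2 each). At the last times it was 7.67% ± 0.724 in the 2i course and 8.32% ± 1.26 in the 2iL course. No library after withdrawal reached the share of a 0 h library in either course. Gm42418, a gene model that holds ribosomal RNA sequence, took 33% ± 5.25 of counts at 12 h of the 2i course and 24.3% ± 0.558 at 24 h of the 2iL course, and 8.86% to 36.7% over all libraries. With Gm42418 and the mitochondrial genes taken out of the total, the members held 9.30% at 12 h, against 12.4% at 0 h of the 2i course, and 9.18% at 24 h, against 12.5% at 0 h of the 2iL course. Its part in the share was not tested beyond this.

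**Figure D2:**
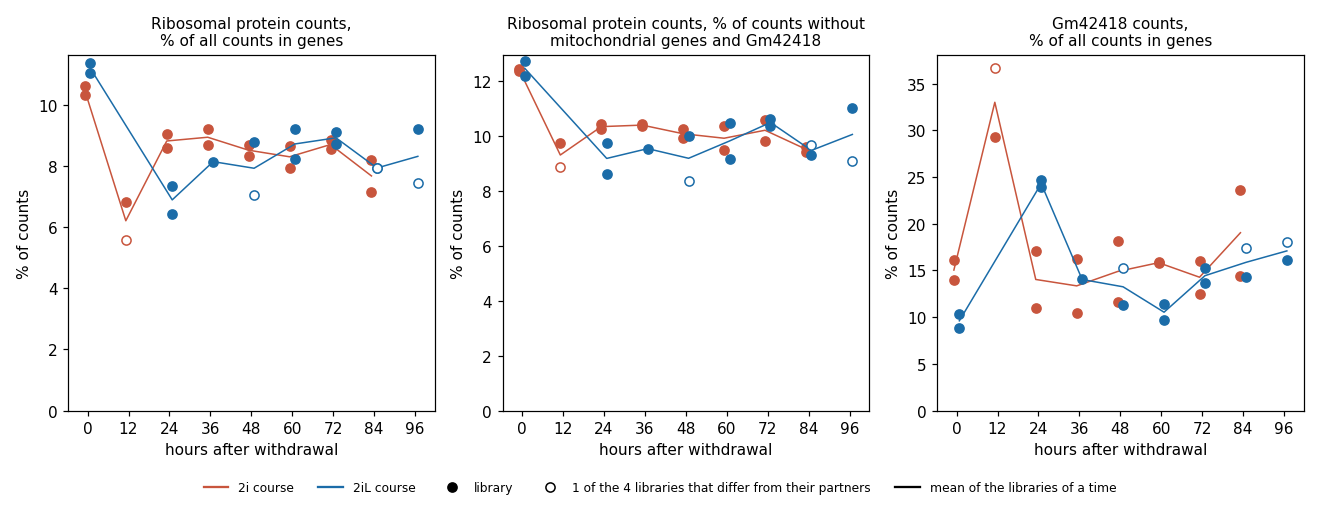
Share of counts in the 81 genes by hours after withdrawal (left, of all counts; middle, of counts without mitochondrial genes and Gm42418) and share of Gm42418 (right), with 1 point per library, lines through the means and open points for the 4 libraries. The members' share is highest at 0 h in both courses. For the share of all counts the lowest mean, 6.21%, stands at 12 h of the 2i course, where Gm42418 is highest at 33%.

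Before withdrawal, no member differed between 2i and 2iL cells (edgeR's quasi-likelihood test with Benjamini-Hochberg adjustment over 11761 genes, adjusted p under 0.05, the rule for every call below). Over all tested genes 8.45% differed, 4.03% higher and 4.42% lower in 2i cells. At an unadjusted p under 0.05 there were 3 members, and DESeq2 called 0. Without the 4 libraries, 3 of 81 members were lower in 2i cells, against 6.86% of all genes. They were Rpl10l, with 173 and 184 CPM in 2i against 279 and 301 CPM in 2iL libraries, Rpl22l1, a paralog of Rpl22, and Rps2, which lies where mRNA enters the small subunit. The differences without the 4 libraries were -0.71 ± 0.15 for Rpl10l, -0.60 ± 0.16 for Rpl22l1 and -0.52 ± 0.17 for Rps2 (log2, SE, adjusted p = 0.00025, 0.0052 and 0.032). The libraries of 2i and 2iL did not overlap for any of these 3 genes, although none of the 4 libraries belongs to this comparison and the values themselves were nearly the same with all libraries.

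Many ribosomal protein transcripts were lower at 12 h of the 2i course, the first time sampled after withdrawal. Of 81 members, 25 (30.9%) were lower than at 0 h, against 5.8% of all genes, and 2 were higher, against 5.65%. The fallen genes stood in both subunits, 15 of 49 in the large and 10 of 32 in the small. The median log2 fold change was -0.50 over the members. Without the 4 libraries 26 were lower, against 6.07% of all genes, with a median of -0.44. Leaving out a single library of the comparison gave between 2 calls, without 2i 0 h replicate 1, and 12 calls, without 2i 12 h replicate 1, and DESeq2 called 7.

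Rpl28, a large subunit protein, had 56.4 and 53.0 CPM at 12 h, against 209 and 176 CPM at 0 h. Both later libraries lay far below both earlier ones, and the log2 fold change was -1.81 ± 0.38 (SE, adjusted p = 0.0014), a call that held in all 16 alternatives run. Rps27a, which is made as a fusion with ubiquitin, had 131 and 126 CPM, against 439 and 314 CPM at 0 h. The groups did not overlap, with a change of -1.55 ± 0.39 (adjusted p = 0.008). Rpl11, which with Rpl5 binds 5S ribosomal RNA and can hold back the p53 inhibitor Mdm2, had 26.1 and 17.3 CPM, against 91 and 68.8 CPM at 0 h. Its change was -1.85 ± 0.55 (adjusted p = 0.023), and -1.63 ± 0.29 without the 4 libraries. Rps18 and Rps16, small subunit proteins, changed by -1.40 ± 0.46 and -1.33 ± 0.39 (adjusted p = 0.042 and 0.023), and by -1.06 ± 0.20 and -1.24 ± 0.25 without the 4 libraries. Rps12, also of the small subunit, had 2752 and 2387 CPM, against 5573 and 5333 CPM at 0 h. Both 12 h libraries held less than either 0 h library, and the change was -1.09 ± 0.30 (adjusted p = 0.014). The 2 rises were those of Rpl39l, described below, and of Rps2, by 0.70 ± 0.22 (adjusted p = 0.029). For Rps2 the higher value, 114 CPM against 78.3 CPM in the other 12 h library, came from 1 of the 4 libraries, and without them the change was 0.42 with an adjusted p of 0.26.

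At 24 and 36 h of the 2i course the transcripts lay nearer to their starting level. None of the 81 members was lower at either time by edgeR, against 9.57% and 9.25% of all genes, with 2 and 1 at an unadjusted p under 0.05 and 0 by DESeq2. The medians were -0.17 at both. The fit without the 4 libraries had 4 and 2 lower members at these times, against 13% and 12.2% of all genes. With all libraries, the higher ones at 24 h were Rpl39l and Rpl6, against 8.58% of all genes. Without the 4 libraries Rpl10l and Rpl7l1 were called higher as well, by 0.58 and 0.43. Rpl6, a large subunit protein, had 1646 and 1163 CPM at 24 h, against 735 and 875 CPM at 0 h. Both 24 h libraries exceeded both at 0 h, and the change was 0.80 ± 0.25 (adjusted p = 0.02). At 36 h Rpl39l alone was higher with all libraries, against 8.98% of all genes, and further members were higher without the 4. Rps27l, a paralog of Rps27 known as a p53 target, was the one member higher at 48 h, against 10.7% of all genes, with 326 and 305 CPM against 238 and 209 CPM at 0 h, a change of 0.50 ± 0.18 (adjusted p = 0.04998). Rps27 had a log2 fold change of -0.24 ± 0.25 at this time (adjusted p = 0.57).

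Lower members became more frequent late in the 2i course. There were 3 at 48 h, 12 (14.8%) at 60 h, 11 (13.6%) at 72 h and 26 (32.1%) at 84 h, against 10.5%, 12.3%, 14.4% and 17.1% of all genes. With all libraries the shares at 60 and 72 h were thus near the background, and that at 48 h was 3.7%. At 60, 72 and 84 h no member was higher by edgeR, by DESeq2 or at an unadjusted p under 0.05, against 13.3%, 15.3% and 17.5% of all genes, and 25.6%, 29.7% and 34.6% of all genes were called in either direction. At 84 h DESeq2 called 4 members, and edgeR called 7 without replicate 1 and 15 without replicate 2 of the 0 h libraries. The medians over the members were -0.29, -0.47, -0.41 and -0.54. At these times 19 (23.5%), 52 (64.2%), 43 (53.1%) and 63 members were lower without the 4 libraries, with medians of -0.28, -0.46, -0.42 and -0.54 and the lower dispersion given above. The background without the 4 libraries was 13.8%, 15.8%, 17.9% and 21.2%. At 84 h, 19 of 49 large and 7 of 32 small subunit genes were lower with all libraries, and the difference between the subunits was not tested. The pluripotency genes summed to 789 and 859 CPM at 84 h, against 1599 and 1606 CPM at 0 h, and the fibroblast genes to 17.7 and 29.5 CPM, against 1.53 and 4.82 CPM. Their part in the fall of the members was not tested.

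Rps12 had 2726 and 2587 CPM at 84 h, against 5573 and 5333 CPM at 0 h. This is about the level of the 12 h libraries, and the groups did not overlap. The change was -1.04 ± 0.30 (adjusted p = 0.0068). Rplp2, which with Rplp1 forms the flexible stalk that recruits translation factors, had 2074 and 2306 CPM at 84 h, against 4996 and 3828 CPM at 0 h. Its change was -1.01 ± 0.25 (adjusted p = 0.0019). Unlike Rps12, Rplp2 was not lower at 12 h, with 3846 and 4825 CPM. Rplp1 fell by 0.68 ± 0.20 (adjusted p = 0.0092) at 84 h. Rplp0, the base of the stalk, had a log2 fold change of -0.35 ± 0.19 (adjusted p = 0.15), which missed the threshold. Rps20 and Rpl14, structural proteins of the small and the large subunit, changed by -0.97 ± 0.32 and -0.89 ± 0.24 (adjusted p = 0.016 and 0.0043).

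Because the times of a course share their 0 h libraries, 84 h was also compared with 12 h of the 2i course directly. Rpl28, with 142 and 132 CPM at 84 h against 56.4 and 53.0 CPM at 12 h, was higher by 1.32 ± 0.39 (adjusted p = 0.0077). Rpl11 was higher by 1.53 ± 0.56 and Rpl37, a large subunit protein, by 0.73 ± 0.29 (adjusted p = 0.03 and 0.048). Rpl6 had 509 and 518 CPM at 84 h, against 1178 and 1121 CPM at 12 h. The groups stood far apart, and the change was -1.16 ± 0.25 (adjusted p = 0.00042). Rpl7l1, a relative of Rpl7 whose yeast counterpart acts in ribosome assembly, changed by -1.03 ± 0.22 (adjusted p = 0.00039). Rplp2 changed by -0.98 ± 0.25 (adjusted p = 0.0022). In all, 3 members were higher and 10 lower, against 18.5% and 19.1% of all genes. There were 9 higher and 13 lower without the 4 libraries, against 18% and 18.3% of all genes in that fit. The split depended on scaling, with 12 higher and 5 lower under the size factors of DESeq2 and 31 higher and 4 lower under library totals.

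The first sample of the 2iL course, at 24 h, showed the same direction with fewer calls. Of 81 members 5 (6.17%) were lower, against 6.5% of all genes, and 2 were higher, against 5.56%. The share of lower members was thus near the background. The median was -0.43. At an unadjusted p under 0.05, 25 of 81 members were lower and 3 were higher. The share of all genes at that level is not given here. Without the 4 libraries, none of which is in this comparison, 37 (45.7%) were lower, against 10.1% of all genes, with a median of -0.42. The fit without the 4 had the lower dispersion given above, which the choice of libraries itself lowers, while the median hardly moved. With single libraries left out of the fit of all libraries, 1 to 3 members were called. Rpl5, the partner of Rpl11, had 193 and 112 CPM at 24 h, against 274 and 286 CPM at 0 h. The groups did not overlap, although the 24 h libraries lay well apart, and the change was -0.86 ± 0.22 (adjusted p = 0.0062). Rpl36, a large subunit protein, had 521 and 368 CPM, against 745 and 821 CPM at 0 h, a change of -0.81 ± 0.21 (adjusted p = 0.009). Rpl14, Rpl31 and Rpl37a, also of the large subunit, changed by -0.72 ± 0.24, -0.62 ± 0.21 and -0.62 ± 0.17 (adjusted p = 0.048, 0.042 and 0.014). Rpl6 rose in this course as well, with 1483 and 1430 CPM at 24 h, against 847 and 911 CPM at 0 h. Both 24 h libraries exceeded both at 0 h, and the change was 0.73 ± 0.25 (adjusted p = 0.049), a call that 10 of the alternatives lost.

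Between 36 and 72 h of the 2iL course the counts of lower members were 10 at 36 h, 20 (24.7%) at 48 h, 2 at 60 h and 3 at 72 h, against 6.13%, 14.9%, 14.6% and 14.8% of all genes. Higher members were Rpl39l at 36 h and Rpl39l and Rpl6 at 48 h, against 5.55% and 15.6% of all genes. By edgeR with all libraries, none was higher at 60 or 72 h, against 14.4% and 15.3% of all genes. By DESeq2 or at an unadjusted p under 0.05 none was higher either. Of all genes, 29.1% and 30.1% were called in either direction. Without the 4 libraries, edgeR did call a higher member at 60 h. The 36 h group rests almost wholly on 1 library in either fit, as its replicate 2 held 7298 counts. Replicate 1 of 48 h, which is among the 4 libraries, decided the value at 48 h. After leaving the 4 out, 5 members were lower at 48 h, against 12.7% of all genes, and the median was -0.20, against -0.53 with all libraries. At 36, 60 and 72 h there were 36, 25 and 12 lower members without the 4 libraries, against 9.89%, 17.9% and 17.9% of all genes in that fit, and the medians were -0.47, -0.31 and -0.23. Rpl6 was higher at 48 h, with 1532 and 1666 CPM against 847 and 911 CPM at 0 h, by 0.86 ± 0.25 (adjusted p = 0.0076), and by 0.92 ± 0.21 without the 4 libraries. Rpl22l1 shows the weight of a single library. It had 8.94 and 75.6 CPM at 48 h, against 117 and 128 CPM at 0 h, and its change was -1.57 ± 0.50 with all libraries and -0.70 ± 0.20 without the 4.

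Late in the 2iL course, 44 members (54.3%) were lower at 84 h and 49 (60.5%) at 96 h, against 18.1% and 20.6% of all genes, and none was higher by edgeR, by DESeq2 or at an unadjusted p under 0.05, against 18.7% and 20.5%. Of all genes, 36.8% and 41.2% were called in either direction. The 49 genes were 28 of 49 in the large and 21 of 32 in the small subunit. The medians were -0.71 and -0.68. Without the 4 libraries 47 (58%) and 32 (39.5%) members were lower, against 15.3% and 19.4% of all genes, with medians of -0.54 and -0.43. At 96 h, 31 members were called in both fits. Leaving out 2iL 96 h replicate 1 alone left 6 calls, and leaving out replicate 2 gave 57. The pluripotency genes summed to 944 and 996 CPM at 96 h, against 1419 and 1534 CPM at 0 h, and the fibroblast genes to 20.1 and 21.1 CPM, against 1.80 and 4.89 CPM.

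Rpl37a, a small zinc-binding protein of the large subunit, had 478 and 577 CPM at 96 h, against 1005 and 1067 CPM at 0 h. Both late libraries lay at about the same low level, and the change was -0.97 ± 0.17 (adjusted p = 2.6e-05), a call kept in all 16 alternatives. Rps18 had 93.2 and 339 CPM at 96 h, against 560.2 and 554 CPM at 0 h. The groups did not overlap, but the change of -1.34 ± 0.44 (adjusted p = 0.015) became -0.71 ± 0.18 without the 4 libraries. The same held for Rpl22l1, at -1.34 ± 0.50 with all libraries and -0.71 ± 0.20 without the 4, and for Rps13, at -1.22 ± 0.42 and -0.84 ± 0.21. Rps12 had 1710 and 3073 CPM, against 4593 and 5006 CPM at 0 h, a change of -1.0 ± 0.30 (adjusted p = 0.0071). Of the stalk, Rplp0 and Rplp1 changed by -0.51 ± 0.19 and -0.61 ± 0.20 (adjusted p = 0.031 and 0.016), and both calls were lost without the 4 libraries. Rplp2, with 2673 and 2585 CPM at 96 h against 3597 and 3312 CPM at 0 h, had a log2 fold change of -0.39 ± 0.25 (adjusted p = 0.21).

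Set directly against 24 h of the 2iL course, 96 h had 11 members lower and 1 higher, against 20.6% and 21.7% of all genes, or 42.4% in either direction. Rpl7l1 had 70.2 and 81.3 CPM at 96 h, against 209.7 and 182 CPM at 24 h. The groups did not overlap, and the change was -1.36 ± 0.22 (adjusted p = 9e-06). Rpl6 had 671 and 605 CPM, against 1483 and 1430 CPM at 24 h, a change of -1.19 ± 0.25 (adjusted p = 0.00028). Rpl15, a large subunit protein, had 4.73 and 14.3 CPM, against 29.3 and 40.8 CPM at 24 h, a change of -1.74 ± 0.39 (adjusted p = 0.00057). All 3 calls held in every alternative run. The split depended on scaling, with 4 higher and 10 lower under the size factors of DESeq2 and 11 higher and 5 lower under library totals.

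**Figure D3:**
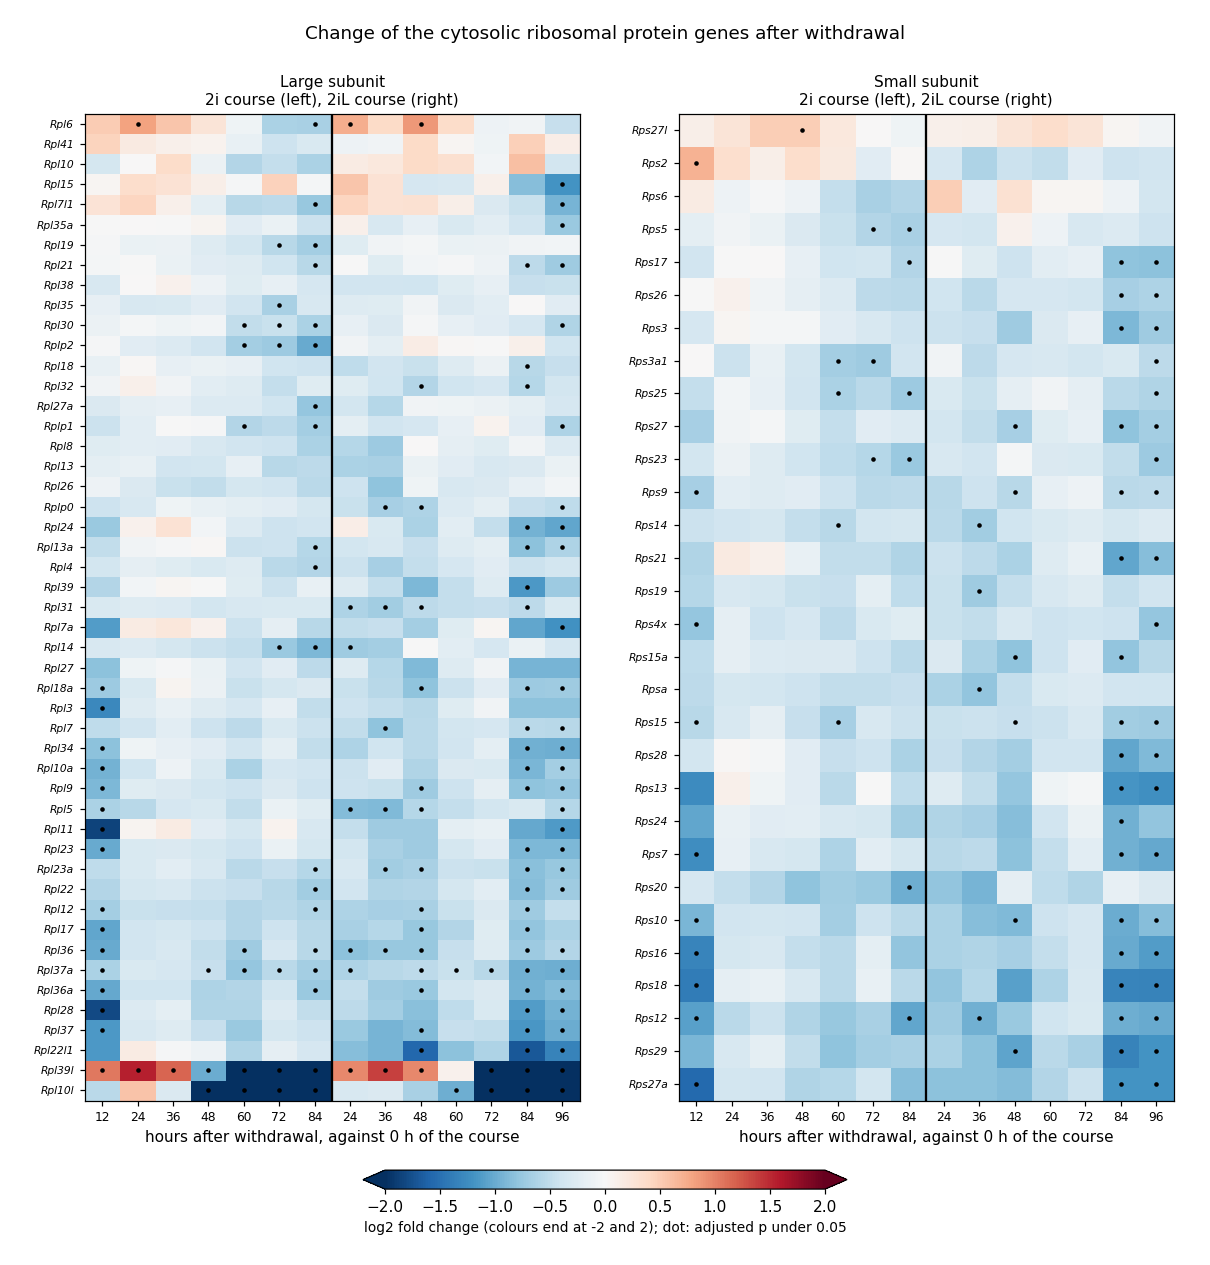
Log2 fold change of the large and small subunit genes, all members but 2, at each time against 0 h of the course, with all 32 libraries, ordered by their mean and with dots for an adjusted p under 0.05. Most fields are blue, with calls concentrated at 12 and 84 h of the 2i course and at 48, 84 and 96 h of the 2iL course, and Rpl39l and Rpl10l at the foot of the large subunit exceed the colour range.

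Over the 14 comparisons with 0 h, with all libraries, 69 members (85.2%) were called in the lower direction alone, against 31.1% of all tested genes. Another 8 (9.88%) were never called (Rpl8, Rpl10, Rpl13, Rpl26, Rpl27, Rpl38, Rpl41, Rps6), against 26.3% of all tested genes. The remaining 4 (4.94%) were higher at some time (Rpl39l, Rpl6, Rps2, Rps27l), against 42.5% of all tested genes. Rps6, the substrate of the S6 kinases, thus passed none of these 14 tests, which does not cover the fit without the 4 libraries. Lower calls in both courses were found for 39 members (48.1%), against 18.7% of all tested genes. Each course is set against its own 0 h libraries, so the times of a course share them. Of the 26 genes lower at 84 h of the 2i course and the 49 lower at 96 h of the 2iL course, 16 were in both lists, 61.5% of the first and 32.7% of the second. Of all 81 members, 60.5% were on the second list and 32.1% on the first, and the shares of the overlap are close to these. Rpl37a had lower calls at 5 of 7 times in the 2i course and 6 of 7 in the 2iL course.

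The joint test over all 7 times of a course called 21 members (25.9%) in the 2i course and 23 (28.4%) in the 2iL course, against 54.8% and 59.1% of all genes. It called, without the 4 libraries, 67 (82.7%) and 48 (59.3%), against 64.8% and 59.2%. After Rpl39l and Rpl10l, the smallest adjusted p-values were those of Rpl6 (1.8e-05 and 0.00023 for 2i and 2iL), Rpl7l1 (7e-05 and 4.4e-05) and Rpl37a (0.0049 and 0.00024). Rpl6 and Rpl7l1 had higher values at 24 h than at 0 h of the 2i course and lower ones at the end. Rpl7l1 had 167 and 126 CPM at 0 h, 190.3 and 204 CPM at 24 h and 80.5 and 92.3 CPM at 84 h of the 2i course. Its values at 24 h exceeded those at 0 h in both libraries. The change of 0.43 ± 0.21 was not called with all libraries (adjusted p = 0.16). Without the 4 libraries the change was also 0.43, and there it was called.

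Rpl39l and Rpl10l had by far the largest changes of any member at the last times of both courses. Rpl39l is encoded at chr16:10170226-10174911 on the plus strand and Rpl10l, in a single exon, at chr12:66283379-66284401 on the minus strand (mm10, GENCODE). Rpl39 sits at the exit of the tunnel through which the new protein leaves the ribosome, and Rpl10 near the peptidyl transferase centre, where it is needed for the subunits to join. The transcripts of each pair share runs of at most 38 bases, and at most 7 bases within the last 200 bases where these libraries are read, so reads of the pairs can be told apart.

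Over the 2i course from 0 h to 84 h, Rpl39l had 37.0 and 44.9 CPM at 0 h, 87.5 and 81.6 at 12 h, 121 and 118 at 24 h, and 96.8 and 84.4 at 36 h. It then had 27.3 and 14.8 CPM at 48 h, 3.55 and 4.61 at 60 h, 0.633 and 0.773 at 72 h, and 0 and 0.553 at 84 h. Both libraries of 12, 24 and 36 h lay above those of 0 h, and all libraries from 48 h on lay below them. The changes were 1.06 ± 0.24 at 12 h, 1.56 ± 0.23 at 24 h and 1.16 ± 0.24 at 36 h (adjusted p = 0.0029, 3.6e-06 and 0.00039). At 84 h a single count stood against 170 at 0 h, which makes the level at 0 h 135 times that at 84 h (95% counting interval 23.9 to 5359).

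In the 2iL course Rpl39l had 53.4 and 62.0 CPM at 0 h, 118 and 106 at 24 h, 156 in the usable library of 36 h, and 97.7 and 127 at 48 h. It had 64.8 and 57.0 CPM at 60 h, 13.8 and 15.2 at 72 h, 5.86 and 5.0 at 84 h, and 1.35 and 0.398 at 96 h. The high phase thus lasted to 48 h, and the values at 60 h overlapped those at 0 h. The changes were 0.96 ± 0.23 at 24 h and 0.96 ± 0.22 at 48 h (adjusted p = 0.0039 and 0.001). At 96 h, 3 counts stood against 262 at 0 h, a ratio of 76.6 for 0 h over 96 h (95% counting interval 25.9 to 374).

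Rpl10l also fell to a few counts, earlier in the 2i than in the 2iL course, and no rise was called with all libraries. In the 2i course it had 173 and 184 CPM at 0 h, 123 and 120.4 at 12 h, 279 and 251 at 24 h, 147 and 144 at 36 h, 30.7 and 32.1 at 48 h, 6.21 and 10.2 at 60 h, 0.633 and 6.18 at 72 h, and 1.30 and 0.553 at 84 h. The values at 24 h were the highest of the course, but their change of 0.57 ± 0.29 was not called (adjusted p = 0.18), while it was called without the 4 libraries at 0.58 ± 0.15 (adjusted p = 0.0021). In the 2iL course it had 279 and 301 CPM at 0 h, 255 and 212 at 24 h, 106 and 267 at 48 h, 141 and 156 at 60 h, 44.8 and 59.8 at 72 h, 15.4 and 6.11 at 84 h, and 0 and 1.59 at 96 h. At the last time of the 2i course 3 counts stood against 749 at 0 h, a ratio of 198 for 0 h over 84 h (67.5 to 963). In the 2iL course 4 counts at 96 h stood against 1320 at 0 h, a ratio of 289 for 0 h over 96 h (113 to 1064). The fall of Rpl10l and Rpl39l at the last time of each course was called in every alternative.

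The X-linked counterparts were called at 1 (Rpl39) and 0 (Rpl10) of the 14 times. Rpl39 had 141 and 125 CPM at 84 h of the 2i course, against 151 and 145 CPM at 0 h, and 44.6 and 146 CPM at 96 h of the 2iL course, against 166 and 158 CPM at 0 h. The low value of 44.6 CPM belongs to 1 of the 4 libraries, and Rpl39 was called at 84 h of the 2iL course alone, at -1.15 ± 0.38 (adjusted p = 0.017), where 1 of the 4 libraries stood at 42.8 CPM and its partner at 102 CPM. Rpl10 had 29.8 and 37.0 CPM at 84 h of the 2i course, against 52.8 and 51.7 CPM at 0 h, and 32.4 and 33.5 CPM at 96 h of the 2iL course, against 45.7 and 39.8 CPM at 0 h. These groups did not overlap, but Rpl10 was called at no time against 0 h with all libraries. The difference in change between a paralog and its counterpart was not tested.

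**Figure D4:**
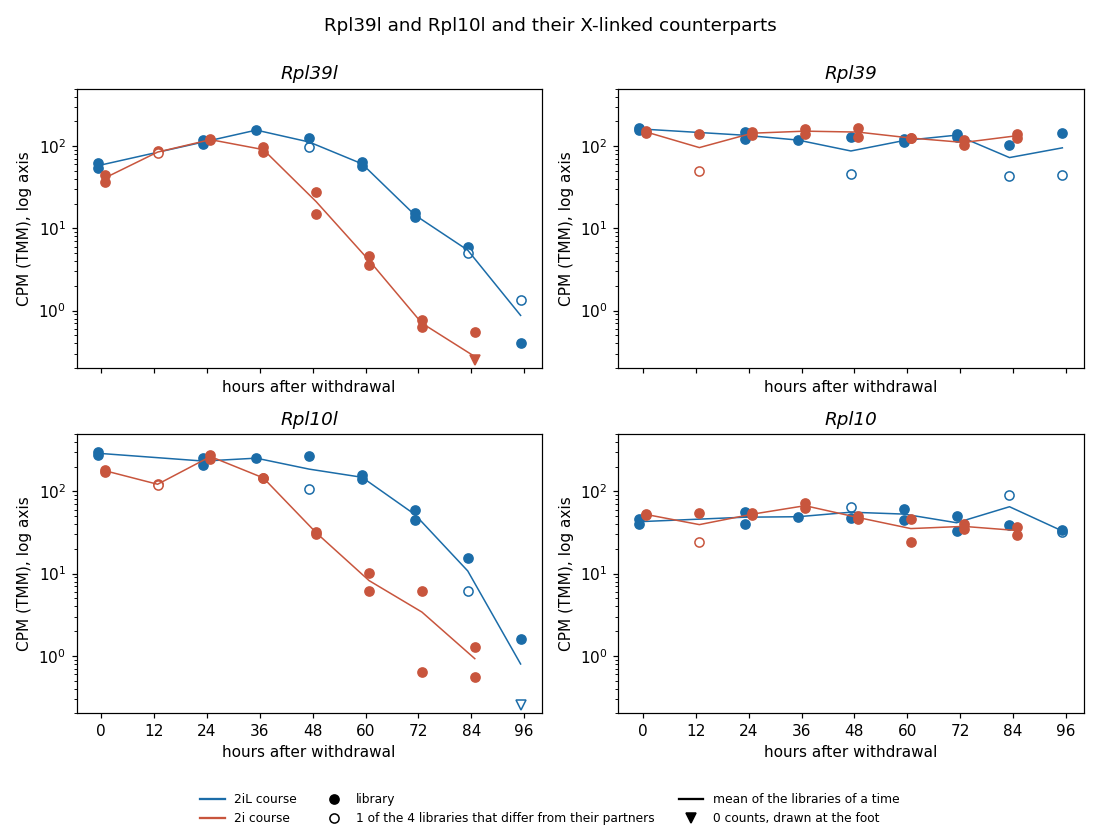
Level in CPM (log axis) of Rpl39l, Rpl39, Rpl10l and Rpl10 by hours after withdrawal, with 1 point per library, lines through the means, open points for the 4 libraries and triangles for libraries with 0 counts. Rpl39l is above its 0 h level at 24 h in both courses, both autosomal genes end under 2 CPM, and their fall comes later in the 2iL course than in the 2i course.

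At the 6 shared times, the fold change of the 2i course was subtracted from that of the 2iL course. The joint test called 2 of 81 members (2.47%), against 23.8% of all genes, and these were Rpl39l (adjusted p = 2.5e-09) and Rpl10l (adjusted p = 6.3e-08). Both kept higher levels, relative to 0 h, in the 2iL course than in the 2i course from 48 to 72 h. For Rpl39l the 2iL change exceeded the 2i change by 1.94 ± 0.35 at 48 h, 3.39 ± 0.42 at 60 h, 3.75 ± 0.72 at 72 h and 3.41 ± 0.94 at 84 h (log2, adjusted p = 0.00022, 4.6e-07, 0.00042 and 0.014). For Rpl10l it did so by 1.85 ± 0.44 at 48 h, 3.47 ± 0.50 at 60 h and 3.31 ± 0.67 at 72 h (adjusted p = 0.0052, 7.8e-06 and 0.00077). At 84 h the Rpl10l difference of 2.80 ± 0.99 was not called (adjusted p = 0.062), and without the 4 libraries it was 3.31 ± 0.75 (adjusted p = 0.001). At 24 and 36 h edgeR called no member, against 3.21% and 3.35% of all genes, with 2 and 1 at an unadjusted p under 0.05 and 0 by DESeq2. There were 14 of 81 members by the joint test without the 4 libraries, against 32.8% of all genes, among them Rplp1, Rpl14, Rps2 and Rps9.

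The stalk protein Rplp2 was the one other member whose change differed between the courses at 84 h, against 11.4% of all genes. It had 2833 and 4573 CPM at 84 h of the 2iL course, against 3597 and 3312 CPM at 0 h, and 2074 and 2306 CPM at 84 h of the 2i course, against 4996 and 3828 CPM at 0 h. The 2i groups did not overlap, the 2iL groups did, and the highest value at 84 h belongs to 1 of the 4 libraries. The difference was 1.11 ± 0.35 (adjusted p = 0.035) with all libraries and 0.73 ± 0.30 (adjusted p = 0.1) without the 4. At 48, 60 and 72 h, only Rpl39l and Rpl10l were called with all libraries, against 9.55%, 10.8% and 9.94% of all genes. Without the 4 libraries further members were called, those at 36 h with almost all 2iL counts from 1 library. Rpl22l1 had a lower change in the 2iL course at 24 h (by -1.01 ± 0.24, adjusted p = 0.0040) and at 36 h (by -0.89 ± 0.27, adjusted p = 0.027), Rpl10l at 24 h and Rpl11 at 36 h, against 2.74% and 2.36% of all genes. Rpl7l1 had a higher one at 48 h (by 0.77 ± 0.24, adjusted p = 0.028) and at 60 h, where Rpl10 was also higher and Rps2 lower. The background there was 6.19% higher at 48 h, and 9.81% higher and 7.87% lower at 60 h.

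Genes that serve ribosomes in other ways were followed beside the members, and the difference between the lists was not tested. Of 74 tested genes for mitochondrial ribosomal proteins, which build the separate ribosome inside mitochondria, 19 were higher and 2 lower at 48 h of the 2iL course (median 0.29). Of 27 genes of ribosome biogenesis, 12 were higher and 1 lower at that time (median 0.44), and 13 were higher without the 4 libraries. The cytosolic members had a median of -0.53 at that time, and of -0.20 without the 4 libraries. At 24 h of the 2i course, 6 mitochondrial ribosomal protein genes were higher, with a median of 0.21, and 19 were higher without the 4 libraries. At 12 h of the 2i course, 1 gene of each list was lower, while 25 of 81 cytosolic members were lower. The shares of all genes called higher or lower at these times are given above, and 6 of 74 at 24 h was near that share.

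At the end of the courses all of these lists had negative medians. At 84 h of the 2i course, 18 of 27 biogenesis genes were lower (median -0.69) and 24 of 74 mitochondrial ribosomal protein genes were lower and 1 higher (median -0.54). At 96 h of the 2iL course, 10 biogenesis genes (median -0.48) and 28 mitochondrial ribosomal protein genes (median -0.40) were lower. The counts for all genes at these times, 17.1% and 20.6% lower, are given above, and the median over all genes lay within 0.03 of 0. Of 17 translation factors whose mRNAs carry the TOP motif, 3 were lower at 12 h of the 2i course (median -0.41). At 84 h of the 2i course 3 were lower (median -0.39), and at 96 h of the 2iL course 2 (median -0.18). The counts at 84 and 96 h were near or below the shares of all genes. Of 9 tested regulators of growth, 4 were lower at 84 h of the 2i course and 3 at 96 h of the 2iL course, and 3 were higher at 48 h of the 2iL course. Of 3 noncoding hosts of small nucleolar RNAs in the files, 1 was lower at 84 h of the 2i course. At 96 h of the 2iL course 2 of them were lower. The lists of 9 and 3 genes are too short to set these counts against the shares of all genes.

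**Figure D5:**
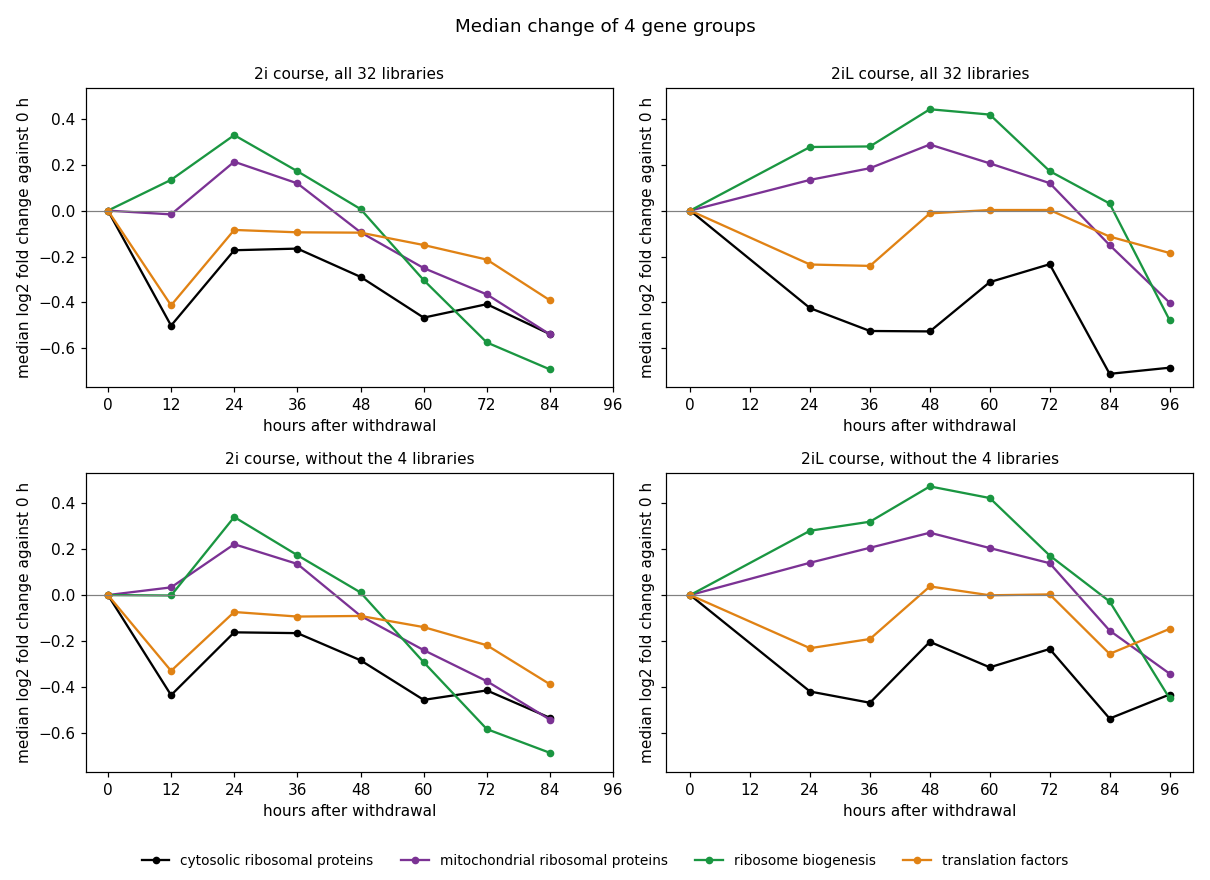
Median log2 fold change against 0 h by hours after withdrawal for the 81 cytosolic ribosomal protein genes, the mitochondrial ribosomal protein genes, the ribosome biogenesis genes and the translation factors, with all libraries (top) and without the 4 libraries (bottom). The cytosolic medians are below 0 at every time, while the medians of mitochondrial ribosomal protein and biogenesis genes are above 0 at 24 and 36 h of both courses and below 0 at the last time.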

How the data were processed

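Polyadenylated RNA of 32 libraries in 16 groups was sequenced from transcript 3' ends (NEGEDIA Digital mRNAseq, per the labels' protocols). Genome build mm10 and the tools HTSeq, STAR 2.6.0a and bcl2fastq are listed in the submitters' processing notes. The annotation release is not given in the sources used here. The authors deposited counts of uniquely aligned reads for 31053 genes per library, and all values were computed from these counts. Reads outside genes, 23.4% to 55.4% of those aligned uniquely, stayed out. Gene names and positions come from GENCODE M21, which names 30934 of the genes, and promoters from RefSeq (GRCm38.p6).

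All libraries entered 1 edgeR 4.0.16 fit (R 4.3.3) with 1 mean for each group, TMM factors and filterByExpr, which left 11761 genes and 16 residual degrees of freedom. The quasi-likelihood F test was followed by Benjamini-Hochberg adjustment across the 11761 genes, and calls were made at an adjusted p under 0.05. The SE of a log2 fold change is its size divided by the root of F. CPM are TMM-normalised, and 95% intervals of count ratios (exact Clopper-Pearson) cover counting error only. The fit was run on simulated counts with known changes in a set of genes at 12 h of the 2i course. These counts had a single dispersion and no deviating libraries, so they cannot test calls that depend on such libraries. Under TMM the median change of all tested genes lay within 0.03 of 0. Library totals moved it by up to 0.34 at 12 h of the 2i course, so members are also given relative to it.

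Named members are those with an adjusted p under 0.05, a mean log2 CPM of at least 3 and a place among the 5 largest rises or falls of a main comparison, the stalk and paralog genes, the 5 smallest p-values of each joint test, and Rps12. Members singled out otherwise were chosen after their values were seen. Members, lists and alternatives were chosen with earlier results of these data known. Alternatives were RLE factors, TMM factors from other genes, library totals, DESeq2 1.42.0, other filters, fits of 1 course, a replicate block, and leaving out single libraries, the shallow library and the 4 libraries. Another 2, totals without Gm42418 and leaving out all 5 libraries, were chosen after seeing the data. The deposited table of normalised values was not used. The values of 2 members and of 1 further gene list are not reported here.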

Additional observations from a re-analysis of the deposited data

Results flagged for a closer look

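For 3 members the change from 0 h differed between the courses, by the test of that difference at a shared time or jointly. Rpl39l and Rpl10l differed jointly with adjusted p-values of 2.5e-09 and 6.3e-08 (edgeR's quasi-likelihood test). Their differences were 1.94 (Rpl39l) and 1.85 (Rpl10l) log2 units at 48 h, 3.39 and 3.47 at 60 h, and 3.75 and 3.31 at 72 h, all higher in the 2iL course. At 84 h the difference of Rpl39l was 3.41. At 48, 60 and 72 h, each library of the 2iL course held more Rpl39l and Rpl10l than either library of the 2i course. Rplp2 differed at 84 h alone, by 1.11, and this call was lost without the 4 libraries (0.73).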

How the results depend on the processing

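No named call changed direction under any alternative. Of the recomputed values of named calls, 1444 stayed past the threshold and 358 did not, and 16 of 64 named calls with a direction were never lost. These include Rpl39l and Rpl10l at both ends of the courses, Rpl28 at 12 h, Rpl37a at 96 h and Rpl6 at the ends against the first times. The median of the members minus that of all genes stayed below 0 at all 14 times under every setting of the fit run, and lay between -0.54 and -0.39 at 12 h of the 2i course and between -0.69 and -0.40 at 96 h of the 2iL course. Counts of called members depended on the setting, and the cause was not tested. The share of all genes called also changed without the 4 libraries, as given above, and is not printed here for each setting. A higher count of members is thus not by itself a result about them. For 2i against 2iL at 0 h the count was 0, and 1 with no filter, 3 without the 4 libraries and 4 without all 5. For 12 h of the 2i course it was 27, and 53 with library totals, 7 by DESeq2 and 49 in the fit of 1 course. For 84 h of the 2i course it was 26, and 12 with RLE factors, 15 with totals, 9 with totals without Gm42418, 4 by DESeq2, 43 with no filter, 17 at a mean of 5 CPM, 63 without the 4, 65 without the 5 and 60 in the fit of 1 course. For 84 against 12 h it was 13, and 35 with totals, 8 by DESeq2, 21 with no filter, 20 without the shallow library, 22 without the 4, 31 without the 5 and 41 in the fit of 1 course. For 24 h of the 2iL course it was 7, and 29 with totals, 13 with totals without Gm42418, 20 with no filter, 15 without the shallow library, 40 without the 4, 57 without the 5 and 2 in the fit of 1 course. For 96 h it was 49, and 26 with RLE factors, 19 with totals without Gm42418, 8 by DESeq2, 32 without the 4 and 8 in the fit of 1 course. For 96 against 24 h it was 12, and 7 by DESeq2 and 19 without the 5. The joint test of the 2i course gave 21, and 13 with RLE factors, 41 with totals, 8 by DESeq2, 54 with no filter, 67 without the 4, 77 without the 5 and 74 in the fit of 1 course. That of the 2iL course gave 23, and 36 with totals, 57 with no filter, 36 without the shallow library, 48 without the 4, 68 without the 5 and 5 in the fit of 1 course. That of the difference gave 2, and 20 with no filter, 5 without the shallow library, 14 without the 4 and 33 without the 5. The other times gave 112 in sum, and 68 by DESeq2, 258 without the 4 and 345 without the 5. The median share of counts was 8.59%, and 10.004% without mitochondrial genes and Gm42418.

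Leaving out single libraries gave 0 to 0 calls for 2i against 2iL, 2 to 12 at 12 h, 7 to 15 at 84 h and 7 to 12 for 84 against 12 h of the 2i course. In the 2iL course it gave 1 to 3 at 24 h, 6 to 57 at 96 h and 6 to 30 for 96 against 24 h. The joint tests gave 11 to 25 (2i), 9 to 55 (2iL) and 2 to 23 (difference), and the other times 45 to 178. The extremes of the 2iL course came from replicate 1 (6) and replicate 2 (57) of 96 h, replicate 2 of 0 h (9) and replicate 2 of 48 h (55, 23 and 178). Replicate numbers did not pair the libraries, with correlations of deviations from -0.718 to 0.792 (median 0.0221) over 105 pairs of groups, 23 of them over 0.1. With the replicate number as a block the counts were 26 at 12 h and 26 at 84 h of the 2i course, 6 at 24 h and 48 at 96 h of the 2iL course, 13 and 12 between later and earlier times, 21, 22 and 3 in the joint tests, and 99 at the other times. Depth limits Rpl39l and Rpl10l at the last times, where groups held 1 to 4 counts.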
